A study of Mus musculus with 4 samples.

Results

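Cytosolic ribosomal proteins are the structural proteins of the ribosomes that translate nuclear-encoded mRNA. The genes described here are the rows of the deposited count table whose names follow the mouse symbols Rps and Rpl with a number (with a, x or l as an optional ending), Rplp0 to Rplp2, and Rpsa. The names alone chose them. They are 80 of the 23420 rows of the table, 31 of the small subunit and 49 of the large subunit. Every such gene lies on a single chromosome of the mm10 build, and 19 chromosomes carry at least 1 of them, all but chromosome 19.

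The study compared MK2 with MK1, 2 mouse keratinocyte lines, with 2 biological replicate cultures of each. Total RNA was sequenced after TruSeq library construction. The labels give no genotype, treatment, strain, sex or passage number for either line, so a difference between MK2 and MK1 is a difference between 2 particular lines, and p-values measure it against the spread between the 2 cultures of a line only. The title of the study concerns the regulatory landscape of p63, the master transcription factor of stratified epithelia.

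The libraries held 25237391 and 28601806 counts for MK2, and 30261111 and 26693849 for MK1. Of all rows, 6644 had 0 counts in all 4 libraries. The 8 keratinocyte markers (Krt5, Krt14, Krt15, Trp63, Itga6, Itgb4, Col17a1 and Dsp) together had 21843 and 18710 CPM (counts relative to the scaled library total) in MK2, and 23157 and 22725 CPM in MK1, so both lines carried the labelled cell type's genes. Krt5 and Krt14 made up most of that sum, and neither was called. Of the others, Col17a1 and Dsp were lower in MK2 (log2 fold change -1.06 and -0.81) and Itga6 was higher (0.83), while Krt15 had 27.9 and 0.247 CPM in the MK2 cultures and 4.77 and 4.47 CPM in MK1. The 8 leukocyte markers together had 0.238 and 0.0705 CPM in MK2 and 29.8 and 29.0 CPM in MK1. Summed fibroblast markers had 1.03 and 1.41 CPM in MK2 and 3.88 and 3.35 CPM in MK1, with Dcn, Lum and Pdgfrb at 0 in all libraries. Summed melanocyte markers had 3.54 and 3.99 CPM in MK2 and 6.05 and 5.36 CPM in MK1, with Dct at 0, and summed endothelial markers 25.4 and 27.4 CPM in MK2 and 17.8 and 14.9 CPM in MK1, with Cdh5 at 0. Kdr made up most of the endothelial sum in every library. In MK1, Cd74 made up most of the leukocyte sum and Pdgfra most of the fibroblast sum, and Mitf was the largest part of the melanocyte sum. All 6 tested leukocyte markers were lower in MK2. Beside Cd74, Ptprc had 85 and 64 counts in MK1 and 0 and 1 in MK2. Cd79a had 89 and 84 counts in MK1 and 3 and 0 in MK2. Ms4a1, Laptm5 and Cd79b were also lower, while Cd3e and Lyz2 had too few counts to be tested. The leukocyte sum in MK1 was thus not carried by Cd74 alone, and whether leukocytes were present was not tested. A sum carried mostly by a single gene, as for fibroblast and endothelial markers, does not show that cells of the named type were present. The part of RNA from other cell types in the differences below was not tested. In bulk cultures, fewer cells of a type and less RNA per cell cannot be told apart.

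Each mature ribosome holds its core proteins in fixed proportion, and cells keep the mRNAs of these proteins at very high and similar levels. Most vertebrate ribosomal protein mRNAs begin with a C followed by a run of pyrimidines, the terminal oligopyrimidine (TOP) motif. Growth signalling through the kinase complex mTORC1, partly by way of the RNA-binding protein Larp1, sets how actively TOP mRNAs are translated and how stable they are. RNA-seq measures the mRNA level and not that translation.

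The starts of 10 of these genes are shown because they let a reader see where a motif of the TOP kind is present at the annotated base and where it is not, and because their levels, given further on, span the range from higher to lower in MK2. Sequences come from RefSeq promoters on GRCm38.p6, the assembly that mm10 represents. Each runs 5′ to 3′ on the gene's strand and holds 15 bases before the annotated start and 15 from it. Capitals mark a TOP-like run, defined as a C at the start base or within 2 bases of it that is followed by 4 or more C or T. The first 4 genes were higher in MK2 and have such a run. They are Rps6 (chr4:86857353-86857382, minus strand), Rpl7a (chr2:26910792-26910821, plus), Rplp2 (chr7:141447636-141447665, plus) and Rpl35a (chr16:33056467-33056496, plus, the annotated start among several that has the run).
Rps6: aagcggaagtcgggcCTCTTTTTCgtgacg
Rpl7a: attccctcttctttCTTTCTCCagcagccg
Rplp2: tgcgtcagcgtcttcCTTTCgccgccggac
Rpl35a: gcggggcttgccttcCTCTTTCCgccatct
Rpl41 (chr10:128549154-128549183, minus) was also higher and has none at its annotated start. Of the higher genes with a promoter entry, 9 had a run and 8 had none, so the starts shown do not give the proportion.
Rpl41: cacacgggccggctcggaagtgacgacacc
Rpl38 (chr11:114668565-114668594, plus) has a run and Rplp0 (chr5:115559452-115559481, plus) has none, and neither passed the test between the lines.
Rpl38: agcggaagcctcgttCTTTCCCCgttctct
Rplp0: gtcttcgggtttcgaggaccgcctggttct
The 3 genes that were lower in MK2 are Rps21 (chr2:180257364-180257393, plus), Rps23 (chr13:90923107-90923136, plus) and Rpl4 (chr9:64173372-64173401, plus), and of these Rps21 has a short run.
Rps21: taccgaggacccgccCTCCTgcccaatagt
Rps23: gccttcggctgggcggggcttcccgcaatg
Rpl4: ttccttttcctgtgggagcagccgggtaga

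Promoters were found for 60 of the 80 genes, none for Rps20. In 21 of the 60 genes (35%) a TOP-like run stood at an annotated start, against 10.5% of 26965 other genes. Counted by promoter, since a gene can have several, 30.6% of the entries of these genes and 8.96% of all entries in the table had one. The test for a run depends on the annotated base, and a start annotated a few bases off hides one: in Rpl4 a pyrimidine stretch lies upstream of the annotated start. TATAAA, the core of the TATA box, was searched on the gene's strand in the 50 bases before the start and was found in 0 of the 60 genes, against 3.16% of other genes and 2.63% of all promoters. CTTCC or its reverse complement GGAAG, the core bound by ETS factors, was counted on both strands from 250 bases before the start to 50 after it and stood in 91.7% of these genes, 73.8% of other genes and 71.4% of all promoters. It can overlap a TOP-like run. The YY1-like word AAGATGGCG or CGCCATCTT was present in 5% of these genes, 1.63% of other genes and 1.403% of all promoters, and the E-box CACGTG in 10% of these genes, 8.09% of other genes and 7.15% of all promoters. A match is a word in the sequence and does not show binding.

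Ribosomal protein genes gave a large share of the mRNA in both lines, and a larger one in MK2. They took 9.09% and 8.80% of all counts in the MK2 libraries, and 7.61% and 7.97% in the MK1 libraries. The means were 8.95% ± 0.211 for MK2 and 7.79% ± 0.259 for MK1 (SD, n = 2 each), a ratio of 1.15 and a difference of 1.16 percentage points. Both MK2 libraries lay above both MK1 libraries. The exact two-sided permutation test over the 4 libraries gave p = 0.333, the smallest that 2 against 2 libraries allow, so the design cannot pass 0.05 for such a value. The small-subunit genes made up 3.50% of counts in MK2 and 3.03% in MK1, and the large-subunit genes 5.44% in MK2 and 4.76% in MK1, so the larger share held for both subunits.

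These mRNAs are short, with a median deposited exon length of 694 bases against 2854 over all genes tested, and levels were compared between genes per length, as TPM, a share of transcripts computed with the deposited lengths. On that scale the 80 genes made up 23.4% of all transcripts in MK2 and 20.7% in MK1 (SD 0.671 in MK2 and 0.453 in MK1, n = 2 each). They filled 63 of the 100 highest places by mean TPM. Over the 73 tested genes that shared at most 50% of their exon bases with other rows, the median level was 2660 TPM, with quartiles of 2043 and 3710 TPM. Of all 76 genes tested, 68 stood at 1000 TPM or more. The order of the levels was much alike in the lines (Spearman rho 0.906 over 76 genes, a description over genes that share libraries and lengths).

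The most abundant were Rps2, a small-subunit protein near the mRNA entry, with a mean of 8138 TPM over the 4 libraries, and the stalk proteins Rplp1 and Rplp0, which help to recruit elongation factors, with 7455 and 7117 TPM. Rps12 followed with 6386 TPM and Rps18, a protein of the head of the small subunit, with 5572 TPM. Rps15a had the lowest TPM, 209, of the tested genes whose exons shared less than 50% of their bases with another row on the same strand. Its deposited length was 5134 bases, far above the family's median, and a level per length divides by it.

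Of the 80 genes, 76 passed the filter on low counts. In 4 genes most exon bases were shared with another row of the table on the same strand. Rpl26 shares 520 of its 543 exon bases (95.8%) with the row Gm15772 on the same strand and had 0 counts in every library. Rpl30 shares 76.0% with Gm12191 and had 58 and 48 counts in MK2 and 57 and 56 in MK1. Rpl34 shares 67.2% with Rpl34-ps1 and had 112 and 126 counts in MK2 and 98 and 97 in MK1. Rps27 shares 60% with Gm9846 and had 27 and 35 counts in MK2 and 17 and 15 in MK1. The counting command set no option to assign a read that overlaps several genes, and featureCounts by default leaves such reads out, so the counts of these 4 genes cannot be read as the levels of their mRNAs, and a comparison of them rests on few reads.

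The other 3 untested genes are paralogs with tissue-restricted expression in mice. Rpl10l, a retrogene copy of Rpl10 used in the testis, had 0 counts in all libraries. Rpl3l, the form of Rpl3 found in striated muscle, had 0 counts in both MK2 libraries and 1 and 0 in the MK1 libraries. Rpl39l, a testis form of Rpl39, had 3 and 1 counts in MK2 and 2 and 0 in MK1. A count of 0 allows up to 3 counts, which is 0.119 and 0.105 CPM in the MK2 libraries and 0.0991 and 0.112 CPM in the MK1 libraries, and such limits cover counting error only. Their parent genes were abundant in both lines.

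Between the lines, MK2 had somewhat more mRNA of many ribosomal protein genes, and less of very few. In edgeR's quasi-likelihood test, adjusted over all 12479 genes tested, 26 of the 76 genes (34.2%) were higher in MK2, against 25.9% of all genes tested. Only 3 (3.95%) were lower, against 28.6% of all genes tested. The median log2 fold change was 0.21 over the 76 genes and -0.01 over all genes tested, and 63 of the 76 were above 0. Culture 2 against culture 1 within a line gave medians of -0.02 in MK2 and 0.07 in MK1 over the same genes. Both subunits showed a similar split: 9 small-subunit genes were higher and 2 lower of 31, and 17 large-subunit genes were higher and 1 lower of 45, each with a median of 0.21.

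The changes were small for this pair of lines. Log2 fold changes ran from -0.56 to 1.12 with an SD of 0.31, and 62 of the 76 lay within 0.5 of 0. No gene passed glmTreat for a change beyond 2-fold (0 of 76, 1 at an unadjusted p under 0.05, and 0 with DESeq2), against 13.3% of all genes tested. All 26 higher and all 3 lower genes had cultures that did not overlap between the lines, which passing the test nearly requires. Over all 76 genes, called or not, the cultures did not overlap for 60, against 80.5% of all genes tested. The share of genes with separate lines is thus close to that of the whole table. Because ribosomal protein mRNAs are short, removal of each library's trend over gene length bears on the count: it left 15 genes higher and 5 lower, with a median of 0.12, and the higher genes made up 75% of those called, in place of 89.7%. In that fit 19.7% of the 76 genes were higher, which is below the 27.0% of all genes tested, and 6.58% were lower, against 29.5% of all. The larger share of higher genes thus depended on the treatment of length, and the smaller share of lower genes did not. Tested rows of 1000 bases or less outside the family, 844 in number, had a median log2 fold change of 0.10, and the 59 ribosomal protein genes of that size one of 0.25. Among 63 other rows at 1000 TPM or more the median was 0.04, with 21 higher and 16 lower. The share of higher genes among these abundant rows was thus close to that of the family (26 of 76). Their share of lower genes was larger than the family's.

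The largest increase belonged to Rps20 (chr4:3834473-3835600 on mm10, minus strand), a protein of the head of the small subunit. It had 1077 and 1122 CPM in MK2, against 498 and 510 CPM in MK1, a log2 fold change of 1.12 ± 0.10 (SE) and adjusted p = 2.4e-04. Its cultures were far apart between the lines and close within each. Rps6, the target of the S6 kinases below mTORC1, had 1556 and 1476 CPM in MK2 and 841 and 898 CPM in MK1 (log2 fold change 0.80 ± 0.10, adjusted p = 0.00101). Both small-subunit genes lie on chromosome 4.

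Among large-subunit genes, Rpl7a had 1768 and 1812 CPM in MK2 and 1033 and 1031 CPM in MK1 (log2 fold change 0.79 ± 0.10, adjusted p = 8.5e-04). Rpl35a, a gene mutated in some patients with Diamond-Blackfan anaemia, had 775 and 702 CPM in MK2 and 393 and 470 CPM in MK1 (0.78 ± 0.13, adjusted p = 0.00259). Rpl24, mutated in the Belly spot and tail mouse, had 832 and 847 CPM in MK2 and 494 and 556 CPM in MK1 (0.68 ± 0.11, adjusted p = 0.00239). In each of these genes both MK2 cultures lay well above both MK1 cultures. Rps20, Rps6, Rpl7a, Rpl35a, Rplp2 and Rpl24 were among the 7 genes called in all 17 alternative analyses, each library left out in turn among them.

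The stalk, a flexible arm of the large subunit that holds elongation factors, had unlike values among its 3 proteins. Rplp2 had 697 and 702 CPM in MK2 and 402 and 451 CPM in MK1 (log2 fold change 0.71 ± 0.11, adjusted p = 0.0019). Rplp1, which pairs with it, had 1948 and 1680 CPM in MK2 and 1571 and 1631 CPM in MK1, at 0.18 ± 0.11 with adjusted p = 0.219. Rplp0, the base of the stalk and a common reference gene in quantitative PCR, had 4460 and 4639 CPM in MK2 and 4922 and 4888 CPM in MK1, at -0.11 ± 0.10 with adjusted p = 0.378. Only Rplp2 passed the test, and the approximate 95% intervals of Rplp2 (0.46 to 0.97) and of Rplp0 (-0.34 to 0.12) do not touch; the difference itself was not tested.

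Other genes with known roles moved less. Rps2 had 5231 and 4460 CPM in MK2 and 3063 and 3214 CPM in MK1 (0.63 ± 0.12, adjusted p = 0.00437), and this call was lost without MK1 replicate 1. Rps28 rose by 0.64 and Rpl35 by 0.67 on the log2 scale. Rpl41, the shortest protein of the ribosome, had 1403 and 1421 CPM in MK2 and 938 and 1018 CPM in MK1 (0.53 ± 0.10, adjusted p = 0.00515). Rps27a, made as a fusion with ubiquitin, had 1337 and 1119 CPM in MK2 and 886 and 918 CPM in MK1, a log2 fold change of 0.45, and Rpl3, which reaches the peptidyl transferase centre, 1893 and 1744 CPM in MK2 and 1388 and 1390 CPM in MK1, a log2 fold change of 0.39. The calls for Rps28, Rps27a and Rpl3 were lost without either MK1 culture, and those for Rpl35 and Rpl41 without MK1 replicate 1. Removal of the trend over gene length also ended the calls for Rps28 and Rps27a.

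Rpl5 and Rpl11 together bind Mdm2, the ubiquitin ligase of p53, when ribosome assembly is disturbed. Rpl11 had 768 and 707 CPM in MK2 and 514 and 604 CPM in MK1 (0.40 ± 0.12, adjusted p = 0.0282), a call that was lost without MK1 replicate 1, MK1 replicate 2 or MK2 replicate 1. In all, 7 of the 17 alternatives ended the call for Rpl11, removal of the trend over gene length among them. Rpl5 had 2089 and 2020 CPM in MK2 and 1970 and 1918 CPM in MK1 (0.08 ± 0.10, adjusted p = 0.52). Rpl5 also shares 47.8% of its exon bases with Fam69a on the other strand, and reads were counted without regard to strand. Fam69a had 526 and 535 counts in MK2 and 1467 and 1311 in MK1, against 52580 and 57255 counts of Rpl5 in MK2 and 59881 and 51507 in MK1.

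The 4 tested X-linked genes had a median log2 fold change of 0.30. Rpl39, which lines the exit tunnel, had 919 and 782 CPM in MK2 and 553 and 642 CPM in MK1 (0.51 ± 0.13, adjusted p = 0.0153). Rpl10, among the last proteins to join the large subunit, had 1781 and 1876 CPM in MK2 and 1434 and 1475 CPM in MK1 (0.33 ± 0.10, adjusted p = 0.0284). Rpl36a had 620 and 589 CPM in MK2 and 510 and 494 CPM in MK1, with 0.27 and adjusted p = 0.0583, and Rps4x 1973 and 1967 CPM in MK2 and 1921 and 2079 CPM in MK1, with -0.02. So 2 of the 4 passed the test, Rpl39 not without MK1 replicate 1 and Rpl10 not without either MK1 culture. Both calls were also lost with the trend over gene length removed. Of the other tested genes on the X chromosome, 19.7% were higher. Xist, the RNA that coats an inactive X chromosome, had 0.119 and 0.141 CPM in MK2 and 1659 and 1880 CPM in MK1, and its part in the X-linked values was not tested.

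The 3 decreases were small. Rps21 (chr2:180257379-180258444, plus strand), a small protein of the small subunit, had 629 and 579 CPM in MK2 and 775 and 1004 CPM in MK1 (log2 fold change -0.56 ± 0.14, adjusted p = 0.0163). Rps23, which helps to form the decoding centre, had 273 and 261 CPM in MK2 and 361 and 355 CPM in MK1 (-0.42 ± 0.10, adjusted p = 0.0109). Rpl4, which reaches into the exit tunnel, had 2456 and 2241 CPM in MK2 and 2842 and 2953 CPM in MK1 (-0.30 ± 0.10, adjusted p = 0.0448). The MK1 cultures of Rps21 were themselves wide apart. The call for Rps21 was lost without MK1 replicate 2, and those for Rps23 and Rpl4 without either MK1 culture. With the median of other genes on its chromosome subtracted, Rps23 was not called either. Rpl4 was also not called without MK2 replicate 2 or with the replicate block, and 7 of the 17 alternatives ended its call in all.

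**Figure D1:**
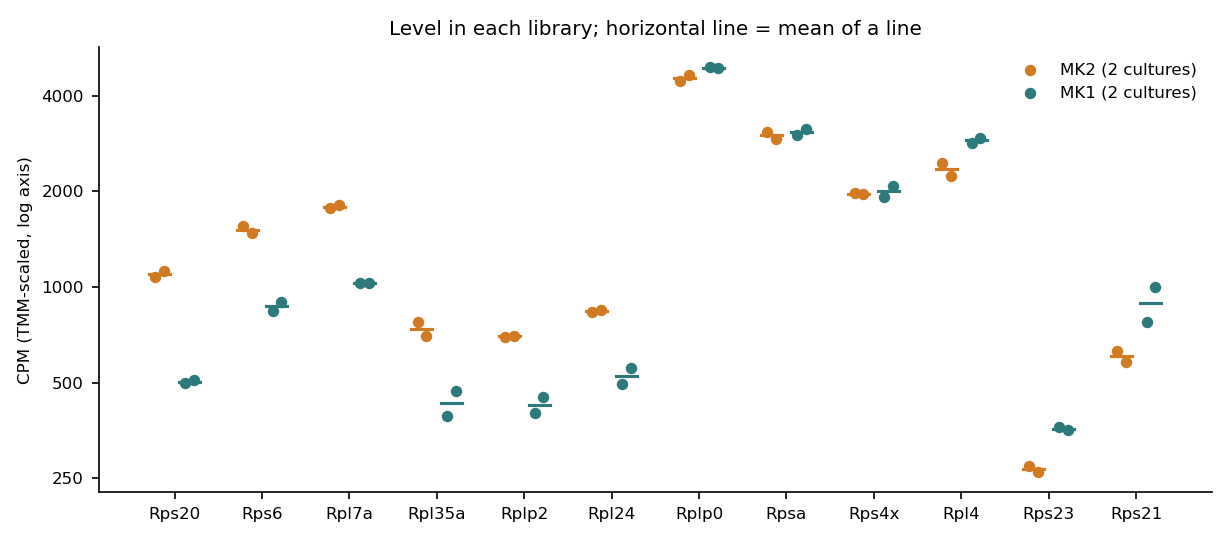
Level of 12 ribosomal protein genes in each library, in CPM on a log axis, with the 2 MK2 cultures (orange) left of the 2 MK1 cultures (teal) and a horizontal line at the mean of each line. Rps20, Rps6, Rpl7a, Rpl35a, Rplp2 and Rpl24 lie higher in MK2, Rplp0, Rpsa and Rps4x were not called, and Rpl4, Rps23 and Rps21 lie lower in MK2.

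Other genes of interest did not pass the test. Rps27l, a paralog of Rps27 that p53 induces, had 132 and 136 CPM in MK2 and 149 and 194 CPM in MK1 (-0.36 ± 0.14, adjusted p = 0.0708). Rpsa, also described as a laminin receptor, had 3086 and 2919 CPM in MK2 and 3016 and 3143 CPM in MK1 (-0.04 ± 0.10). Rps19, the gene most often mutated in Diamond-Blackfan anaemia, had 543 and 506 CPM in MK2 and 529 and 658 CPM in MK1 (-0.18 ± 0.13). The cultures of the lines overlapped for Rpsa and Rps19 and not for Rps27l. Rps14 had 1728 and 1399 CPM in MK2 and 1257 and 1211 CPM in MK1 (0.34 ± 0.13, adjusted p = 0.0595). Rpl38, the gene of the Tail-short mouse, had 416 and 488 CPM in MK2 and 345 and 372 CPM in MK1 (0.33 ± 0.12, adjusted p = 0.0509). Rpl22, which mouse cells can do without, had 245 and 229 CPM in MK2 and 237 and 230 CPM in MK1 (0.02 ± 0.10, interval -0.22 to 0.26). The miss of the threshold does not show equal levels, since the intervals of Rps14 and Rpl38 exclude 0 before adjustment. Rps27, with its few reads, had a log2 fold change of 1.04 ± 0.31 and adjusted p = 0.026, a call that was lost with DESeq2 and without MK1 replicate 1, MK1 replicate 2 or MK2 replicate 2. Of the 47 genes not called, 37 had a fold change above 0.

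With an MK1 library left out, fewer genes passed the test. Without MK1 replicate 1, 7 genes were higher and 2 lower, and without MK1 replicate 2, 11 were higher and 0 lower (1 at an unadjusted p under 0.05; DESeq2 was not run with a library left out). The calls over all genes fell as well, to 1527 higher and 2189 lower without MK1 replicate 1 and 1875 higher and 2494 lower without MK1 replicate 2. The share of higher genes was then 9.21% in the family against 12.1% of all genes tested without MK1 replicate 1, and 14.5% against 14.7% without MK1 replicate 2, so it was not above the background in either fit. The medians over the ribosomal protein genes were then 0.17 and 0.24, so the median stayed above 0 without either library.

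The changes of single ribosomal protein genes were set beside those of other genes on the same chromosome. On chromosome 4 the other tested genes had a median log2 fold change of 0.37 with 47.1% of them higher, and 4 of 5 ribosomal protein genes there were higher, Rps20, Rps6 and Rpl11 among them and Rpl22 not. On chromosome 2 the other genes had a median of 0.36 with 46.7% higher, and there were 3 of 4 ribosomal protein genes higher and Rps21 lower. On chromosome 16, at 0.28 for other genes with 39.2% higher, Rpl35a and Rpl24 were both higher. These 3 chromosomes thus held 9 of the 26 higher genes among 11 tested. On each of these chromosomes the family's median lay above that of the other genes.

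Chromosome 7 carries the most genes of the family, 14, and Rplp2 alone among them was higher, with a median of 0.09 for the family and -0.12 for other genes. Of the other genes there, 17.2% were higher. On chromosome 9 other genes had a median of -0.23, with 13.1% higher and 37.8% lower. Of the family there, 0 of 7 were higher (0 also at an unadjusted p under 0.05 in edgeR, and 0 with DESeq2) and Rpl4 was lower. On chromosome 10, at -0.33 for other genes with 10.7% higher, Rpl41 alone of 4 was higher. Rps23 is the only tested gene of the family on chromosome 13, where other genes had a median of -0.41 and 48.5% of them were lower. On chromosome 17, 4 of 6 ribosomal protein genes were higher, with a median of 0.36 against -0.06 for other genes, of which 20.2% were higher. Over the 11 chromosomes with at least 3 tested ribosomal protein genes, the family's median and the other genes' median had Pearson r 0.89 and Spearman rho 0.81, given as a description, since all values come from the same 4 libraries. Over the 76 single genes the relation to the chromosome's median was looser, with r 0.49 and rho 0.50.

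**Figure D2:**
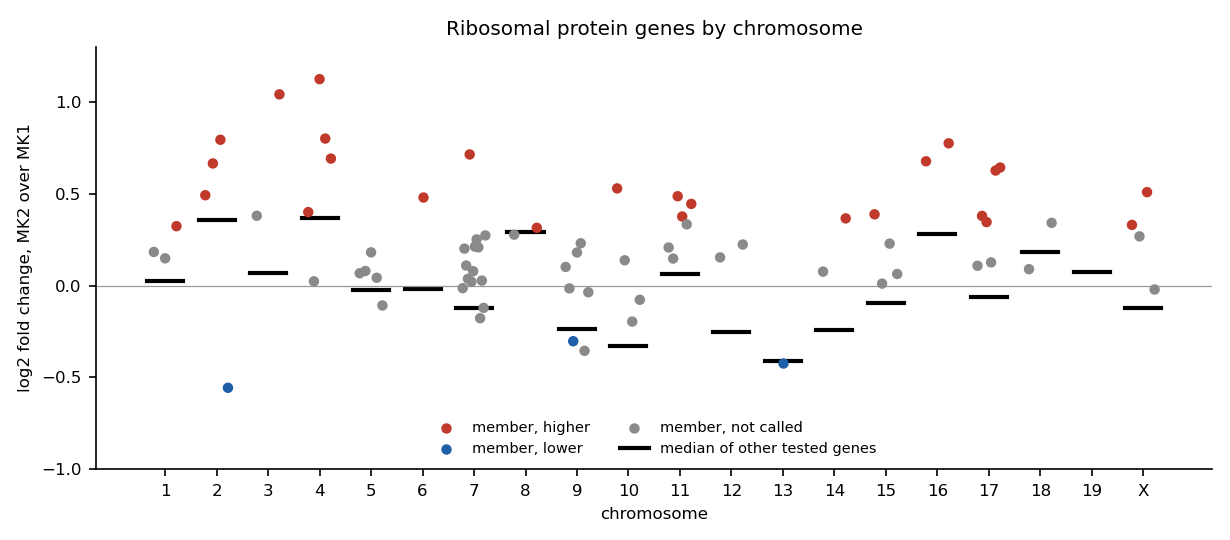
Log2 fold change of MK2 over MK1 (vertical axis) for each tested ribosomal protein gene (members, points) by chromosome, coloured as higher (red), lower (blue) or not called (grey), with a black bar at the median of the other tested genes of the chromosome. On chromosomes 2, 4 and 16, where the black bars are at 0.36, 0.37 and 0.28, 9 of 11 points are red, and on chromosome 9, with its bar at -0.23, 0 of 7 are. Of the other genes, 46.7%, 47.1% and 39.2% were higher on chromosomes 2, 4 and 16, and 13.1% on chromosome 9.

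Closer neighbours gave a similar description. For each gene the median was taken over the 50 nearest tested genes outside the family on the same chromosome. It was 0.49 around Rps20, 0.60 around Rps6, 0.40 around Rpl7a and 0.33 around Rpl35a. It was 0.03 around Rpl11 and -0.02 around Rpl22, both also on chromosome 4. Around Rps21 it was -1.01 within 2.42 Mb, although the median of chromosome 2 is above 0, and around Rps23 and Rpl4 it was -0.44 and -0.19. The increases of Rps20, Rps6, Rpl7a and Rpl35a thus stood in neighbourhoods that were higher in MK2, and the 3 decreases in neighbourhoods that were lower. Other increases did not: Rps28 and Rps2 had neighbourhood medians of -0.29 and -0.06. Rps27, whose few counts cannot be read as its mRNA level, had one of -0.16. Rpl41 and Rps26, which lie 76.4 kb apart on chromosome 10 with the same neighbourhood median of -0.48, had log2 fold changes of 0.53 and -0.08, with approximate 95% intervals of 0.28 to 0.77 and of -0.34 to 0.18.

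In neighbourhoods with a median above 0.2, 11 of 14 ribosomal protein genes were higher and 0 lower (0 also before adjustment in edgeR, and 0 with DESeq2), with a median of 0.58. Between -0.2 and 0.2, 11 of 39 were higher and 1 lower, with a median of 0.18. Under -0.2, 4 of 23 were higher and 2 lower, with a median of 0.10. Of all genes tested, 25.9% were higher and 28.6% lower, and other genes in such neighbourhoods were not counted. Over the 76 genes the fold change had Pearson r 0.62 and Spearman rho 0.53 with the neighbourhood median, as a description of genes that share libraries. Subtraction of that median brought the SD of the family's log2 fold changes from 0.31 to 0.26. Of the 76 genes, 70 were above the median of their 50 nearest genes and 67 above that of their chromosome. These counts were not adjusted for gene length and come from genes that share libraries. Copy number was not measured, and its part in these values was not tested.

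**Figure D3:**
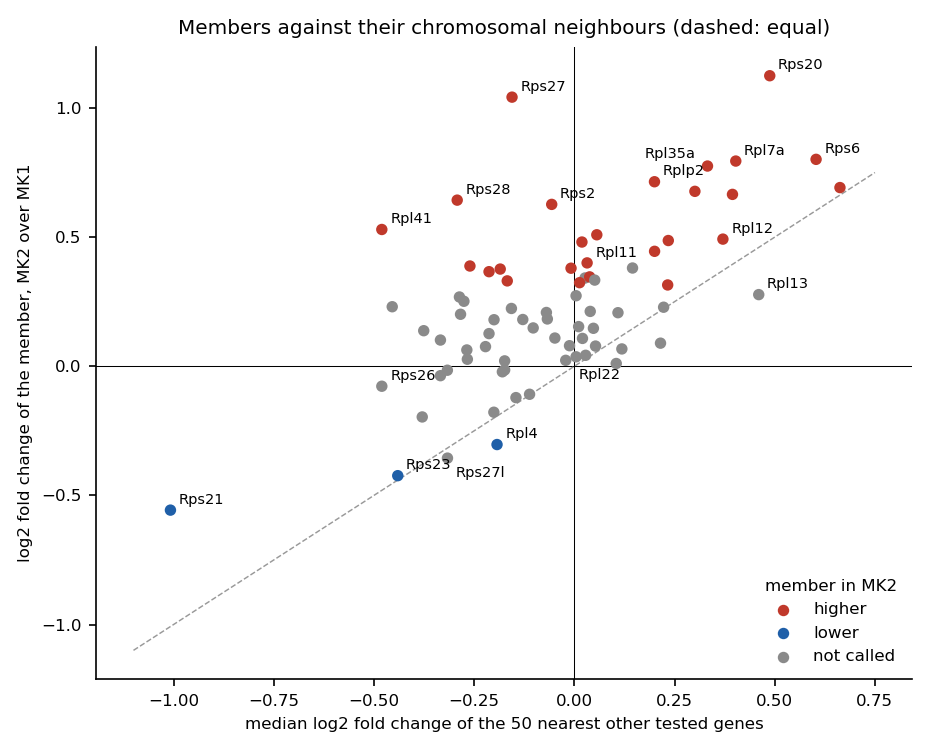
Log2 fold change of each tested ribosomal protein gene (vertical axis) against the median log2 fold change of its 50 nearest tested genes outside the family (horizontal axis), MK2 over MK1, coloured as higher (red), lower (blue) or not called (grey), with a dashed line where the values are equal. Of the 76 genes 70 lie above the line, and Pearson r is 0.62.

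The starts shown at the outset can be set beside these changes. Of the 21 tested genes with a TOP-like run at an annotated start, 9 were higher and 1 lower, with a median log2 fold change of 0.33. Of the 35 tested genes with a promoter entry and no such run, 8 were higher and 2 lower, with a median of 0.18. Among all genes tested, 25.9% were higher and 28.6% lower. The difference between genes with and without a run was not tested. The ranges overlap widely (-0.56 to 1.04 with a run, -0.42 to 0.68 without), and both kinds hold higher and lower genes. Rps27, with its few reads, is among the 9 higher genes with a run and gives the value of 1.04.

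A list of related rows with names outside the pattern had 4 of 10 tested rows higher, 0 lower (25.9% and 28.6% of all genes tested) and a median of 0.21. It mixes ribosomal proteins and paralogs with Rps19bp1, which binds Rps19, and with the pseudogene rows Rps15a-ps4 and Rps15a-ps6, which also stand in the pseudogene list. For this list, for the chaperones below and for the pseudogene rows, a count of 0 in edgeR was also 0 before adjustment and with DESeq2. Rpl22l1, the paralog of Rpl22, had 203 and 152 CPM in MK2 and 92.1 and 109 CPM in MK1 (log2 fold change 0.82 ± 0.16, adjusted p = 0.00579). Rpl36al, the autosomal copy of Rpl36a, rose by 0.57 and Rpl7l1 by 0.30 on the log2 scale. Of these, the call for Rpl22l1 was lost without MK1 replicate 1, and that for Rpl7l1 without either MK1 culture or MK2 replicate 1. Gnb2l1, which encodes the scaffold Rack1, had 2468 and 2277 CPM in MK2 and 2376 and 2296 CPM in MK1, a log2 fold change of 0.02. Of 6 annotated pseudogene rows, 3 were tested and 0 called. Rps15a-ps4, the most counted of them, had 12.1 and 7.44 CPM in MK2 and 9.67 and 12.3 CPM in MK1, which overlap.

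Other TOP mRNAs, chiefly of translation factors, had 9 of 24 higher and 2 lower (25.9% and 28.6% of all genes tested), with a median log2 fold change of 0.00. Npm1, a nucleolar chaperone of ribosome assembly, had 2274 and 2170 CPM in MK2 and 1048 and 1141 CPM in MK1 (log2 fold change 1.02 ± 0.11, adjusted p = 4.3e-04). Eef2, the translocation factor, had 3644 and 3998 CPM in MK2 and 5892 and 5034 CPM in MK1 (-0.52 ± 0.12, adjusted p = 0.0108). Cct3, a chaperonin subunit, rose by 0.60 on the log2 scale, and Hnrnpa1, most of whose exon bases overlap another row, fell by 0.53 at 3.97 and 3.77 CPM in MK2 and 5.46 and 5.74 CPM in MK1. Fewer of these TOP mRNAs were called higher without MK1 replicate 1 or without MK1 replicate 2, as was true of all genes tested. The calls for Cct3 and Eef2 were lost without MK1 replicate 1 and that for Hnrnpa1 without any 1 of the 4 libraries, whereas Npm1 was called in every such fit.

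Noncoding RNAs that host snoRNAs also start with TOP motifs. Of 8 tested, 7 were higher in MK2 and 1 was lower (25.9% and 28.6% of all genes tested), with a median log2 fold change of 1.07. Snhg6 had 24.6 and 29.2 CPM in MK2 and 6.84 and 9.57 CPM in MK1 (1.72 ± 0.20, adjusted p = 6.8e-04). Snhg8, Snhg7 and Snhg12 rose by 1.14, 1.13 and 1.07 on the log2 scale, at levels between 3.87 and 23.5 CPM. Gas5, the best known of these hosts, had 114 and 120 CPM in MK2 and 142 and 149 CPM in MK1 (-0.31 ± 0.10, adjusted p = 0.0355). The 7 higher hosts all had log2 fold changes above that of every ribosomal protein gene other than Rps20 and Rps27. Gas5 went the other way, and its call was lost without MK1 replicate 1, MK1 replicate 2 or MK2 replicate 1.

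Genes of the signalling that acts on TOP mRNAs went both ways, with 7 of 26 higher and 10 lower and a median of -0.28. Of all genes tested, 25.9% were higher and 28.6% lower. Inhibitors of mTORC1 were among both the higher and the lower genes. Ddit4, a stress-induced inhibitor, had 17.96 and 16.01 CPM in MK2 and 237 and 204 CPM in MK1 (log2 fold change -3.70 ± 0.14, adjusted p = 8.6e-06). Sesn3 had 0.278 and 0.494 CPM in MK2 and 14.4 and 8.94 CPM in MK1 (-4.89), and Sesn2 17.4 and 13.9 CPM in MK2 and 53.9 and 47.0 CPM in MK1 (-1.69). Tsc1 and Akt1s1, which also restrain the complex, were higher by 0.40 and 0.31 on the log2 scale, and Tsc2, Deptor and Depdc5 were not called (-0.17, -0.31 and -0.16). Of the Rag GTPases, which bring mTORC1 to the lysosome, Rraga had 103 and 110 CPM in MK2 and 66.9 and 65.8 CPM in MK1 (0.69 ± 0.10, adjusted p = 0.00179), and Rragc 108 and 127 CPM in MK2 and 78.3 and 69.8 CPM in MK1 (0.67 ± 0.13, adjusted p = 0.00454). Rragd was lower (-2.88) at very low counts, with 0.0795 and 0.212 CPM in MK2 and 1.84 and 0.372 CPM in MK1. The kinase gene Mtor itself had 27.0 and 30.8 CPM in MK2 and 62.1 and 54.8 CPM in MK1 (-1.02 ± 0.12, adjusted p = 8.3e-04). Larp1 was higher by 0.48 on the log2 scale, a call lost without either MK1 culture, and that for Rragd was lost without MK1 replicate 1 or MK2 replicate 1. The call for Rragc was lost without MK1 replicate 2, that for Tsc1 without either MK1 culture or MK2 replicate 1, and that for Akt1s1 without any 1 of the 4 libraries. Activity of the pathway was not measured.

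Factors linked to ribosomal protein promoters, among them Myc with its partners and the ETS factor Gabpa, gave 3 higher and 5 lower of 16, with a median of -0.06. The shares of all genes tested were 25.9% higher and 28.6% lower. Myc had 176 and 197 CPM in MK2 and 152 and 148 CPM in MK1 (0.31 ± 0.11, adjusted p = 0.0424), and Gabpa 91.3 and 78.6 CPM in MK2 and 60.8 and 63.2 CPM in MK1 (0.45 ± 0.12, adjusted p = 0.0151). Mxd4, an antagonist of Myc at E-boxes, had 10.3 and 13.1 CPM in MK2 and 65.5 and 50.1 CPM in MK1 (-2.30 ± 0.18, adjusted p = 1.6e-04). Mycn fell by 1.87 and Mxd3 by 1.37 on the log2 scale, while Mxi1 rose by 0.69. The calls for Myc and Gabpa were lost without either MK1 culture, and that for Myc also without MK2 replicate 2. Chaperones of single ribosomal proteins had 4 of 9 higher and 0 lower, beside the same shares of all genes, with a median of 0.35. Heatr3, which brings Rpl5 into the nucleus, rose by 1.02 on the log2 scale, Grwd1, a chaperone of Rpl3, by 0.99, Nap1l4 by 0.72 and Pdcd2, a chaperone of Rps2, by 0.70.

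Mitochondrial ribosomal proteins, encoded in the nucleus and used in the other ribosome of the cell, had 36 of 76 higher and 5 lower, with a median of 0.30. Among all genes tested, 25.9% were higher and 28.6% lower. All 4 on chromosome 4 were higher, among them Mrpl37 with 50.2 ± 2.69 CPM in MK2 and 17.9 ± 1.32 CPM in MK1 (SD, n = 2 each, log2 fold change 1.49), Mrpl50 (1.27) and Mrps15 (1.103). Mrpl33 was the most lowered, with 24.0 ± 1.097 CPM in MK2 and 89.8 ± 13.01 CPM in MK1 (-1.90). Fewer were called higher without MK1 replicate 1, as was true of all genes tested. The log2 fold changes of the mitochondrial ribosomal proteins had an SD of 0.46 and those of the cytosolic genes 0.31, a difference that was not tested.

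**Figure D4:**
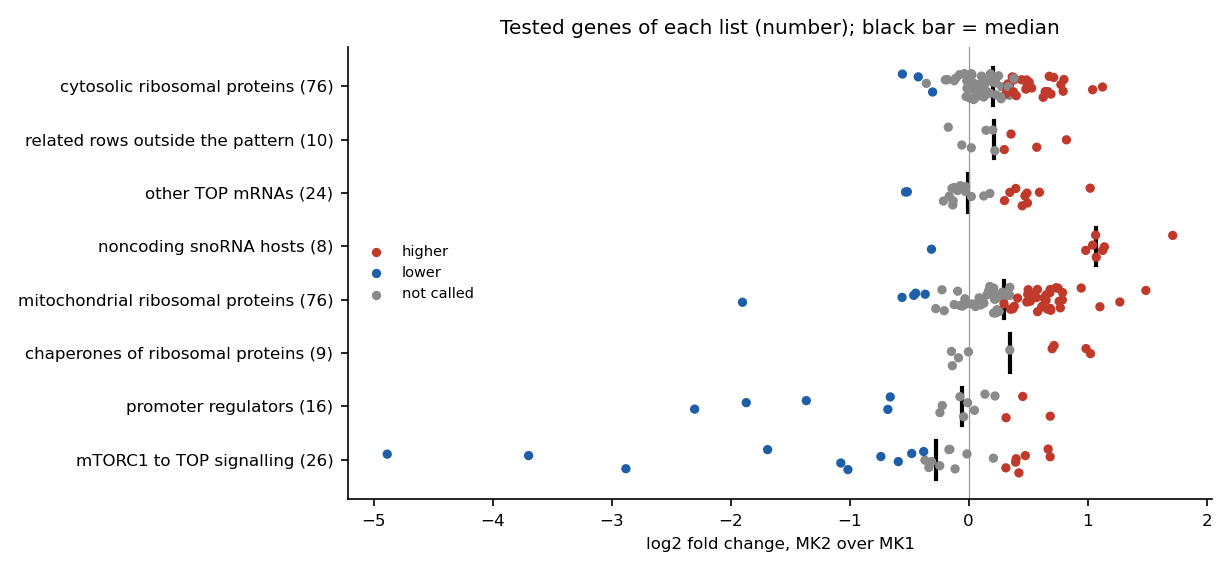
Log2 fold change of MK2 over MK1 for each tested gene (points, red higher, blue lower, grey not called) of the cytosolic ribosomal proteins and of 7 related lists, with the number tested in brackets and a black bar at the median. The medians are 0.21 for the cytosolic ribosomal proteins, 1.07 for snoRNA hosts, 0.30 for mitochondrial ribosomal proteins and -0.28 for mTORC1 signalling genes.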

How the data were processed

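The authors deposited raw read counts per gene for the 4 libraries, with no normalization. Per the file headers, featureCounts 1.4.6-p4 counted TopHat alignments over the exons of each gene of the UCSC mm10 annotation, with no option for strand or for reads that overlap several genes. The submitters' processing notes list featureCounts 1.5.0 instead, beside DESeq2 1.10.1, TopHat2 2.0.13 and Bowtie2 2.2.6. The header calls the second line's alignments MKU, and columns were matched by the sample titles. Counts of overlapping genes and of copies are uncertain.

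From these counts, edgeR 4.0.16 in R 4.3.3 (filterByExpr with minimum count 10, TMM, quasi-likelihood F test, glmTreat at log2 fold change 1, Benjamini-Hochberg at 0.05 over all genes tested, two-sided) compared MK2 with MK1. Errors of log2 fold changes are standard errors. CPM used TMM-scaled library sizes, and TPM the deposited lengths. Intervals of log2 fold changes are approximate, at 95%. The test was checked on simulated counts. Alternatives used DESeq2 1.42.0, other scalings and filters, thinning, a trend over length, each library left out and a replicate block. Replicate pairs within a line differed by more than sampling noise.

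The genes, lists, tests and alternatives were chosen with earlier results of these data known. Genes were named by role, by the 6 largest changes in each direction, by the 5 highest and 5 lowest TPM, by overlap or by failing the filter, and in related lists by the 4 largest called changes. Rpl24, Rpl35, Rps26 and Rps28 were chosen after their values were seen, as were Gnb2l1, Rps15a-ps4, Gas5, Mtor, Larp1, Rraga, Rragc, Tsc1, Tsc2, Akt1s1, Deptor, Depdc5, Myc, Gabpa and Xist. Promoters and starts are RefSeq, GRCm38.p6. Some genes of the family and lists are counted but not reported by name here. Rps4l and protein sequences were not analysed here.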

Additional observations from a re-analysis of the deposited data

How the results depend on the processing

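Of 1291 comparisons of a ribosomal protein gene's call under an alternative, 1157 left the call as it was, and 0 called genes changed direction. With the trend over gene length removed, 15 genes were higher and 5 lower, and the median log2 fold change was 0.12. With the length trend and a replicate block together, 9 were higher and 4 lower, the median was again 0.12, and the share higher was 11.8% against 22.7% of all genes tested. The median was 0.15 with upper-quartile scaling, which also moved the median of all genes to -0.07, and 0.29 with each chromosome's median subtracted, an alternative chosen after seeing the data. With 1 library left out, 7 to 29 genes were higher and 0 to 3 lower, the 0 being the fit without MK1 replicate 2. A lone culture was then assumed to vary like the other line. The same fits gave 14 to 34 mitochondrial ribosomal proteins and 1 to 9 other TOP mRNAs higher. DESeq2 called 29 higher (38.2%, against 21.1% of all genes tested) and 3 lower (3.95%, against 23.1%). The share of counts was 9.41% in MK2 and 8.22% in MK1 without mitochondrially encoded and the 10 most counted other rows, and 23.4% in MK2 and 20.7% in MK1 as a share of TPM. The cause of these shifts was not tested.

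Whether the replicate numbers pair the cultures cannot be told from the titles. The correlation of culture 2 minus culture 1 between the lines was -0.15 over all genes tested, and such a weak correlation does not decide it. With the replicate block 19 genes were higher and 2 lower. That is 25% higher against 21.9% of all genes tested, and 2.63% lower against 25.4%. With the MK2 numbers crossed, chosen after seeing the data, 30 were higher and 4 lower. That is 39.5% higher against 28.6% of all genes tested, and 5.26% lower against 31.1%. With 2 cultures per line, standard errors of about 0.11 (log2) limit what can be called among these well-counted genes.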
